A study of Drosophila melanogaster with 6 samples.

Results

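The genes described here are the well expressed noncoding RNA genes of wing disc myoblasts that carry only an annotation number, compared between WT and M1BP RNAi. They are genes whose symbol is a CR number, alone or after lncRNA: or asRNA:, with a mean of at least 200 raw counts over the 6 libraries. Of 2612 such genes among the 17494 in the count table, 312 met that minimum, and these are the members. Another 3 genes of the pattern were set aside by name in advance (CR43310, CR13656 and asRNA:CR46082), with means of 24.8, 53.8 and 88 counts. The members were thus chosen by their mean count, and the difference between genotypes was not used. The members just inside the minimum were CR44003, asRNA:CR45895 and lncRNA:CR45048, with means of 212.2, 213.7 and 213.8 counts. Just outside it lay asRNA:CR46099, asRNA:CR45195 and asRNA:CR44704, with 199, 198.3 and 196 counts.

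RNA was measured in myoblasts sorted by fluorescence from dissected wing discs of Drosophila melanogaster at 0 h APF (after puparium formation), in animals raised at 25 °C, with 3 WT and 3 M1BP RNAi libraries. Both genotypes carried the Mef2-GAL4 driver and UAS-GFP::Gma, the reporter used for the sort. M1BP RNAi animals also carried the UAS-M1BP RNAi #1 transgene, and no RNAi construct was named for WT. Mef2-GAL4 is a muscle driver that is not limited to the stage sampled and is also active in some neurons, and each library came from pooled discs. The sex of the animals was not given. The study's methods name independent biological replicates for its experiments in general and triplicate RNA preparations for the libraries, without saying whether these came from separate crosses, so the p-values measure the spread between these samples, which may be technical in part.

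Libraries held 43086545 to 51855156 counts, and all 312 members had counts in every library and passed the filter on low counts. Normalised counts of M1BP itself (counts divided by the effective library size) were 5311, 5680 and 5216 for WT against 1387, 1841 and 1710 for M1BP RNAi. This left 30.5% of the WT mean (adjusted p = 1.45e-05, edgeR quasi-likelihood test). The 9 myoblast markers summed to 11000 to 12100 CPM (counts scaled to the library total) in WT against 10900 to 11600 in M1BP RNAi. Those of the wing disc epithelium summed to 323 to 333 and 293 to 332. Most of this was ap, with a mean of 13600 raw counts beside 38.2 to 391 for the others. On the log2 scale ap differed by −0.03, nub by −0.70, wg by −1.02, hh by −0.71 and en by −0.54. Also lower were grh (−0.72), crb (−0.33) and Fas3 (−0.30), while dpp was higher (0.70), and none of the epithelial markers was called. Haemocyte markers summed to 25.6 to 37.3 and 18.8 to 23.9 CPM, so every M1BP RNAi library lay below WT. Most of this was Pxn, with a mean of 1130 raw counts. The tested genes of this list were all lower in M1BP RNAi, Pxn by −0.44, srp by −1.41 and NimC1 by −0.95 (log2). Few counts fell on Hml and He, and eater was at 0 in every library. Fat body markers stayed under 0.75 CPM in all libraries, and Mlc2 was the single gene of these marker lists that passed an adjusted p of 0.05. A marker of differentiated muscle, Mlc2 was lower in M1BP RNAi (log2 fold change −1.52, adjusted p = 0.00304). The other tested genes of that list went the other way, Mhc by 0.89, Act88F by 0.85, up by 1.46 and Mlc1 by 0.46. In bulk samples, fewer cells of a type and less RNA per cell cannot be told apart.

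M1BP is a zinc finger protein that binds a DNA element called Motif 1, found at the core promoters of many broadly expressed fly genes, where RNA polymerase often pauses shortly after it starts. Antisense RNA genes (asRNA) are transcribed from the DNA strand opposite another gene and usually share sequence with its exons. Long noncoding RNA genes (lncRNA) are a looser class that includes RNAs between genes, within introns and alongside coding genes. A bare CR number marks genes that code for no protein, and pseudogenes are among them. A few fly noncoding RNAs have well known tasks, such as the roX RNAs of X chromosome dosage compensation, but no function was annotated in the sources used here for the numbered genes.

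Where a member lies decides what its count can mean. The cDNA kit used here does not keep the strand of the RNA, so a read from shared exon bases fits both genes of an overlapping pair. Exon overlap with another gene was usual, with 287 of 312 (92%) sharing at least 1 exonic base. In 247 of them the overlap was with the opposite strand only, and 40 overlapped a gene of the same strand. The other 25 members shared no exonic base, 13 lying within the span of another gene and 12 outside every other gene. By symbol, 227 members were asRNA genes, 69 were lncRNA genes and 16 had a bare CR number, and all 16 of the last class were annotated as pseudogenes. The members lay on every major chromosome arm, with 58 on 2L, 49 on 2R, 75 on 3L, 76 on 3R, 7 on 4 and 47 on X. A median of 72% of a member's exonic bases was shared, and for 25 members it was 100%.

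The members together took 1.27%, 1.269% and 1.281% of all counts in the WT libraries and 1.296%, 1.291% and 1.288% in the M1BP RNAi libraries. Their summed share thus moved little, though every M1BP RNAi library lay above every WT library, a difference that was not tested. The 25 members without exon overlap took 0.0394% to 0.0444%. The 5 largest held 27.3% of all member counts, namely lncRNA:CR42491, lncRNA:CR42862, lncRNA:CR44999, asRNA:CR45926 and lncRNA:CR45184, and each of them overlapped a protein-coding gene.

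The largest count was that of lncRNA:CR42491, with 45180, 46640 and 41470 normalised counts in WT against 43120, 46640 and 48350 in M1BP RNAi. It shares 377 of its 747 exonic bases with RpL22, a ribosomal protein gene on the same strand, which had a mean of 52510 normalised counts in WT against 53930 in M1BP RNAi. The groups overlapped for both genes. Next came lncRNA:CR42862, with 38020, 39860 and 43670 in WT and 46670, 44180 and 46360 in M1BP RNAi. This one shares only 4.48% of its bases with its neighbour CG33229 and stood above it per length (168 against 101 CPM per kb of exon). All 3 M1BP RNAi libraries exceeded the WT libraries, by 0.17 ± 0.06 on the log2 scale (SE, adjusted p = 0.165), while CG33229 had −0.20 ± 0.07 (SE, adjusted p = 0.166), so neither passed the test.

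The remaining members of this group overlapped genes of growth, chromatin and splicing. For lncRNA:CR44999, which shares 91.8% of its bases with Myc, the growth regulator, the WT libraries read 33410, 24500 and 35320 normalised counts and the M1BP RNAi libraries 28890, 26250 and 27460. Myc itself had the same low WT library, with 49843, 35556 and 51358 in WT. WT replicate 2 was thus the lowest WT library for both genes. The log2 fold change of lncRNA:CR44999 was −0.17 ± 0.12 (adjusted p = 0.437), and without WT replicate 2 it was −0.33 (adjusted p = 0.017). Nap1 is a histone chaperone gene, and asRNA:CR45926 on its opposite strand differed by 0.11 ± 0.06 where Nap1 differed by 0.11 ± 0.06 (log2, SE). Sf3b3 encodes a splicing factor subunit, and lncRNA:CR45184, which lies along it, differed by 0.02 ± 0.06 (log2, SE, adjusted p = 0.88).

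The comparison asks which of these noncoding genes changed when M1BP was depleted. Few did. At the study's threshold, an adjusted p of at most 0.001 with at least a 1.5-fold change, 1 of the 312 members was called (0.321%), beside 0.475% of all 10306 tested genes and 0.441% of the 7261 tested genes with a mean of 200 or more counts. At an adjusted p of 0.05, 14 members were called (4.49%), 7 higher and 7 lower in M1BP RNAi, beside 4.09% of all tested genes (1.92% higher and 2.17% lower) and 4.42% of those with 200 or more counts. The 3 libraries of each genotype did not overlap for 84 members (26.9%, 43 above and 41 below WT), beside 26.1% of all tested genes (13.8% above and 12.3% below) and 27.1% of those with 200 or more counts. These shares lay near the background, so the members as a whole were called about as often as other genes. Their median log2 fold change was −0.0027, against 0.007 over all tested genes, and 9 members differed by 1.5-fold or more.

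**Figure D1:**
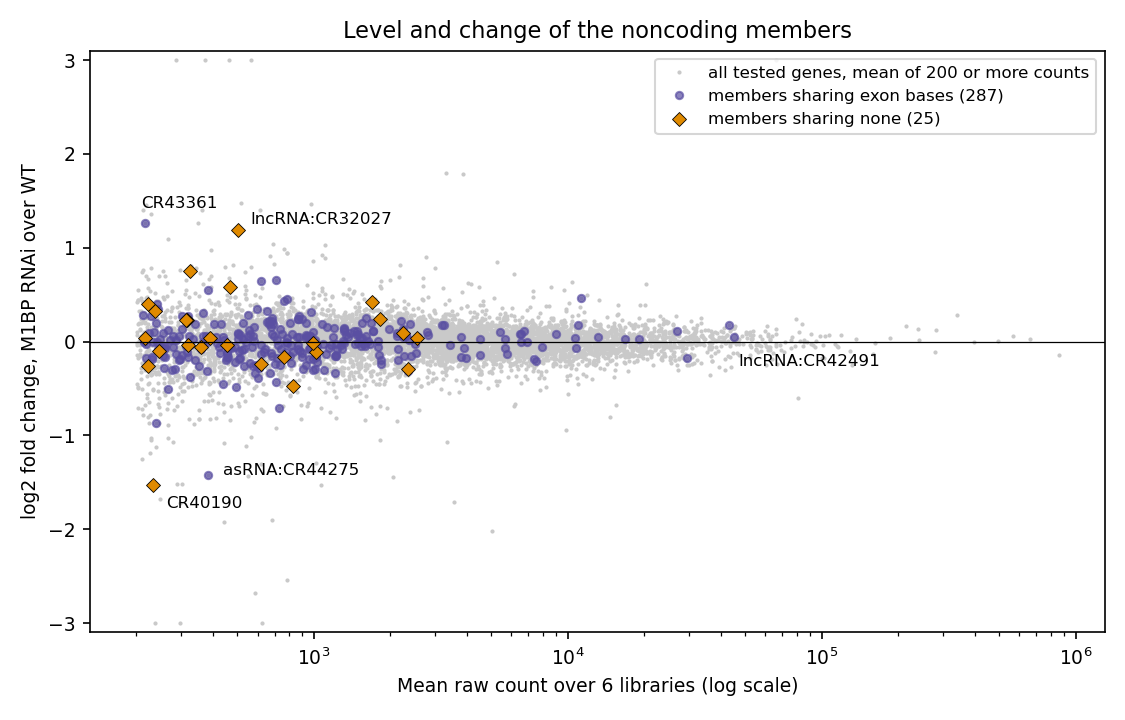
Mean raw count over the 6 libraries (x axis, log scale) against the log2 fold change from WT to M1BP RNAi (y axis) for the 287 members that share exonic bases with another gene (circles), the 25 that share none (diamonds) and all tested genes with a mean of 200 or more counts (small grey points, drawn at the edge where beyond 3). The members spread around 0 at every level, between −1.53 for CR40190 and 1.27 for CR43361.

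The counts of calls rested on single libraries. With 1 library left out, members at an adjusted p of 0.05 numbered 8 without WT replicate 1, 22 without WT replicate 2, 8 without WT replicate 3, 5 without M1BP RNAi replicate 1, 5 without M1BP RNAi replicate 2 and 8 without M1BP RNAi replicate 3. Over all tested genes the same fits called, in that order, 186 of 10530, 764 of 10568, 241 of 10490, 290 of 10545, 177 of 10532 and 228 of 10549. The calls over all genes thus also rose without WT replicate 2 and fell without each other library, from 422 of 10306. The single call at the study's threshold, lncRNA:CR32027, held only without WT replicate 2. DESeq2's Wald test, the study's tool, called 24 and 6 members at these thresholds. Of the 10329 genes it tested in all, it called 869 and 174.

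**Figure D2:**
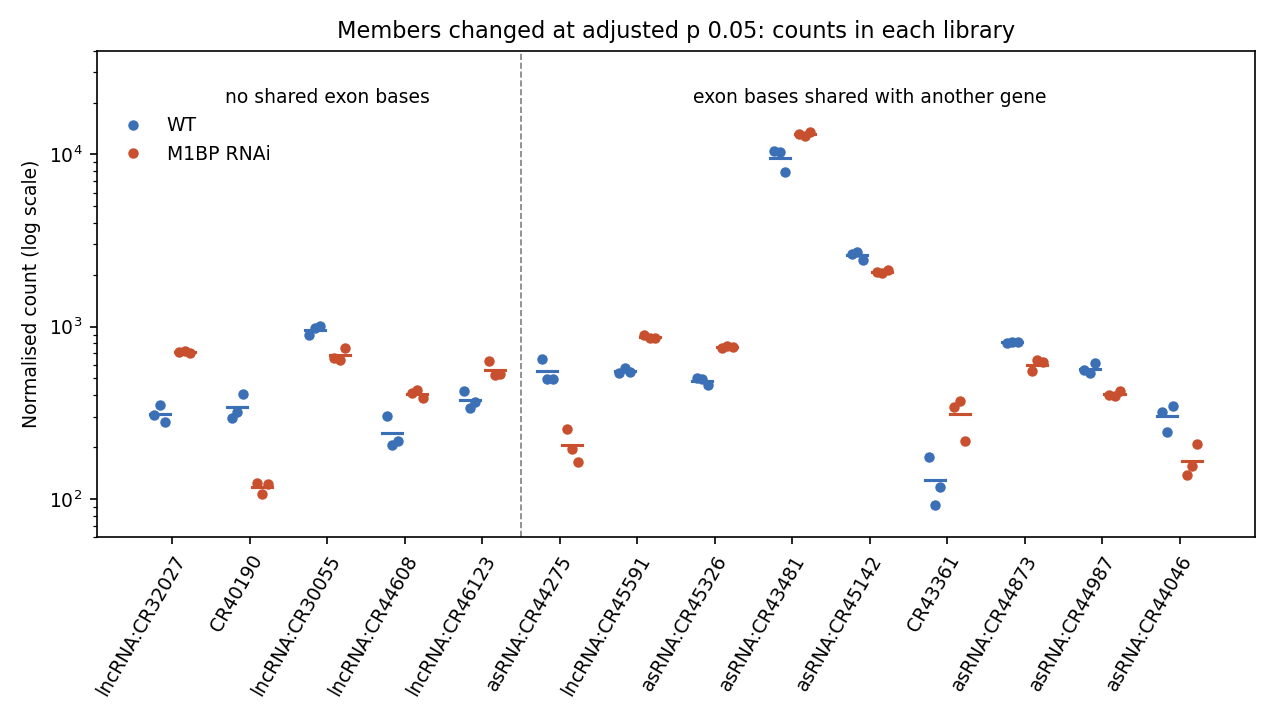
Normalised counts (y axis, log scale) of the 14 members at an adjusted p of 0.05, with a point for each library, a bar for each genotype's mean, WT in blue and M1BP RNAi in red. The genotypes do not overlap for any of the 14, and asRNA:CR43481 stands far above the rest.

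Of the 25 members that share no exonic base with another gene, 5 were called at an adjusted p of 0.05 (20%, beside 4.09% of all tested genes) and 1 at the study's threshold (4%, beside 0.475%). Leaving out 1 library brought the 5 to 3 without WT replicate 1, WT replicate 2, WT replicate 3 or M1BP RNAi replicate 3, and to 2 without M1BP RNAi replicate 1 or M1BP RNAi replicate 2. These 25 are the members whose counts could be read without an overlapping exon. Reads from RNA of a surrounding or neighbouring gene, outside its annotated exons, could still fall on them, and their part was not tested. With exon overlap the numbers were 9 of 287 (3.14%) and 0 of 287. DESeq2 called 18 and 4 of them, beside 869 and 174 of all 10329 genes it tested. Leaving out 1 library gave 19 calls in place of 9 without WT replicate 2, 3 without M1BP RNAi replicate 1 or M1BP RNAi replicate 2, and 5 without each of the others. Over all tested genes these fits gave 764 calls in place of 422 without WT replicate 2, and 177 to 290 without each other library. At an unadjusted p under 0.05, edgeR gave 49 of the 287 (17.1%) and 8 of the 25 (32%), beside 20.2% of all tested genes and 22.4% of those with 200 or more counts. The difference between the shares of the 2 kinds of member was not tested.

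Called at the study's threshold, lncRNA:CR32027 (FBgn0052027, dm6 chromosome 3L, 18841579 to 18842786, plus strand, 1064 exonic bases) lies within the span of Indy on the other strand. Indy encodes a plasma membrane transporter of citrate and other dicarboxylates, known for its link to lifespan in flies. The normalised counts of lncRNA:CR32027 were 308, 349 and 278 in WT and 709, 722 and 701 in M1BP RNAi. Every M1BP RNAi library was thus above every WT library, and the M1BP RNAi libraries lay close together. The mean rose from 312 ± 35.6 to 711 ± 10.7 (SD, n = 3 each), a fold of 2.28 (log2 fold change 1.19 ± 0.12 SE, adjusted p = 0.000484, edgeR quasi-likelihood test), and it passed 0.05 in all 6 fits that left out a library. Indy rose too, from 5811, 5970 and 6525 to 8541, 8294 and 8660 normalised counts (log2 fold change 0.48 ± 0.06, adjusted p = 0.00223).

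Measured against its host, lncRNA:CR32027 had 5.31%, 5.85% and 4.26% of the Indy count in the WT libraries and 8.31%, 8.71% and 8.09% in the M1BP RNAi libraries. The ratio did not overlap between genotypes (exact permutation test, two-sided, p = 0.1, the smallest that 3 against 3 allows). Such ratios were taken only for chosen members that were already called, so the p-values are a description. The same test gave 0.7 for asRNA:CR44275 against dpn, 0.6 for lncRNA:CR45591 against Act87E and 0.5 for asRNA:CR45326 against Alg3. It gave 0.1 again for CR43361, lncRNA:CR30055, asRNA:CR44873 and lncRNA:CR44608. Cat, the catalase gene that is the nearest gene on one side, read 19300 ± 1010 in WT against 19490 ± 751 in M1BP RNAi (SD, n = 3 each). On the other side lncRNA:CR45388 had hardly any counts. Reads from unspliced Indy RNA could fall on lncRNA:CR32027, since the kit keeps no strand, and their part in its count was not tested.

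The largest decrease among all members was that of CR40190 (FBgn0085732, chromosome 2R, 1211067 to 1213666, plus strand), an annotated pseudogene with 6 exon blocks and no gene across its span. Its normalised counts were 295, 318 and 408 in WT and 123, 107 and 123 in M1BP RNAi, so the lowest WT library was still far above the highest M1BP RNAi library. The mean fell from 340 ± 59.7 to 118 ± 9.19 (SD, n = 3 each), which is 34.6% of WT (log2 fold change −1.53 ± 0.18 SE, adjusted p = 0.00134). The adjusted p lay just over the study's 0.001, and it passed 0.05 without each library in turn. The nearest genes were CR42653, 1754 bases away, with 24.9 ± 6.74 and 39.4 ± 11.2 normalised counts (SD, n = 3 each), and CG40191, 50473 bases away (log2 fold change 0.13, adjusted p = 0.485). Neither passed the test, so CR40190 was the one called gene at this place. A pseudogene resembles another gene of the genome, and the headers of the count table speak of unique alignments. Whether reads that fit a similar copy were lost was not tested, so its level is uncertain to that extent.

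Of the other lncRNA genes without exon overlap, 2 rose and 1 fell. The first, lncRNA:CR44608 (chromosome 2L, 4228921 to 4229458, plus strand, 538 bases), stood at 305, 206 and 217 normalised counts in WT against 414, 429 and 384 in M1BP RNAi (log2 fold change 0.75 ± 0.17, adjusted p = 0.0391). It begins 359 bases beyond RpL40, a ribosomal protein gene on the same strand with a mean of 30340 normalised counts in WT, which did not pass the test (log2 fold change 0.07 ± 0.12, adjusted p = 0.794). As a share of the RpL40 count it had 0.954%, 0.601% and 0.873% in WT and 1.47%, 1.36% and 1.08% in M1BP RNAi, without overlap of the genotypes.

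Nested in the very long span of Myo81F, a gene for an unconventional myosin, lncRNA:CR46123 (chromosome 3R, 1366234 to 1366601, minus strand) had 421, 336 and 367 normalised counts in WT against 634, 523 and 528 in M1BP RNAi (log2 fold change 0.58 ± 0.13, adjusted p = 0.04). Its host had a mean of 3.38 counts in WT and 4.52 in M1BP RNAi, so the host was nearly silent where the member was well expressed. The member that fell was lncRNA:CR30055 (chromosome 2R, 12589239 to 12591395, plus strand), within the span of Sin3A, a histone deacetylase corepressor on the other strand. It read 889, 979 and 1002 in WT and 662, 641 and 756 in M1BP RNAi (log2 fold change −0.48 ± 0.10, adjusted p = 0.0262). Sin3A did not pass the test (−0.09 ± 0.07, adjusted p = 0.521), and the member's share of the Sin3A count was 4.91% to 6.42% in WT and 3.95% to 4.87% in M1BP RNAi.

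The other 20 members without exon overlap were not called. Per length, the highest of the 12 outside every gene was lncRNA:CR40469 (chromosome X, 214 bases), with 146 ± 31.6 CPM per kb in WT against 195 ± 12.6 in M1BP RNAi (SD, n = 3 each). Its M1BP RNAi libraries all lay above WT (1172, 1441 and 1779 against 1803, 2049 and 2018 normalised counts), at an adjusted p of 0.118, which was 0.0327 by DESeq2 and 0.0322 without WT replicate 3. CR40354, a pseudogene on 3L, followed with 38.6 ± 5.49 and 39.6 ± 1.76 CPM per kb. Then came lncRNA:CR43685 with 18.2 ± 1.44 and 16.9 ± 1.61, lncRNA:CR44608 with 9.63 ± 2.04 and 16.2 ± 1.06, and lncRNA:CR42861 with 11.4 ± 1.55 and 13.4 ± 1.35. Of these 5, lncRNA:CR44608 was the one that passed an adjusted p of 0.05. Among the members within another gene, lncRNA:CR34335 had 153 ± 36.1 and 125 ± 6.27 CPM per kb, about the level of lncRNA:CR40469, within the span of DIP-alpha, a cell surface protein gene at 1.48.

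**Figure D3:**
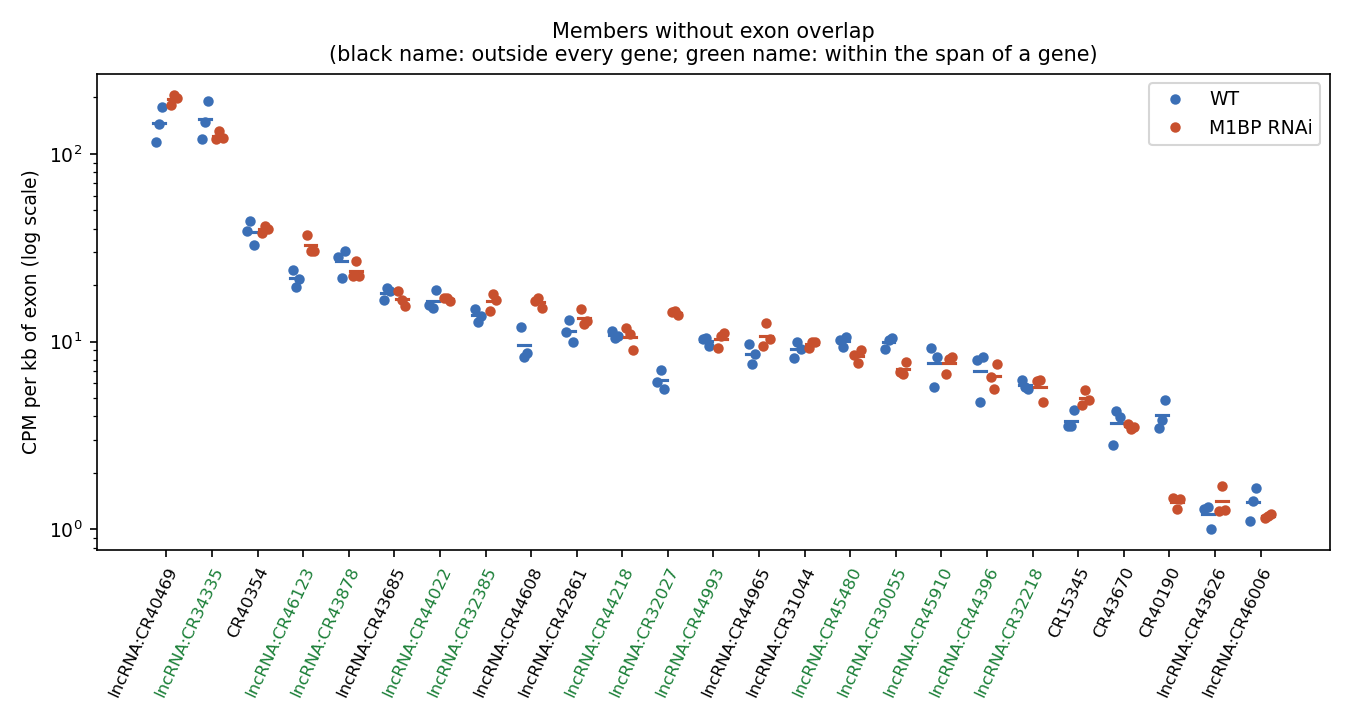
CPM per kb of exon (y axis, log scale) of the 25 members without exon overlap, with a point for each library and a bar for each genotype's mean, WT in blue and M1BP RNAi in red. Levels range from 1.18 for lncRNA:CR46006 in M1BP RNAi to 195 for lncRNA:CR40469 in M1BP RNAi, and most neighbours in this order overlap.

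The 13 members within a gene's span could be set beside their hosts, 12 of which were tested. Member and host had the same sign in 11 of 12, with a median difference of 0.147 on the log2 scale. Only the hosts Indy and Mi-2, the ATPase of a chromatin remodelling complex, passed an adjusted p of 0.05. While Mi-2 fell (log2 fold change −0.30, adjusted p = 0.0161), lncRNA:CR32218 within it had −0.04 (adjusted p = 0.914). A second member at Mi-2, asRNA:CR43889, shares 161 of its 785 bases with the gene on the opposite strand and had the same log2 fold change of −0.30 (adjusted p = 0.0681).

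Among the 9 called members with exon overlap, all of which overlapped on the opposite strand only, every main overlapping gene had the same sign, and 7 of these genes were themselves called at an adjusted p of 0.05. The clearest case was asRNA:CR44275 (FBgn0265302, chromosome 2R, 8229296 to 8230796, plus strand), which lies almost wholly (98.1%) under exons of dpn, or deadpan, a transcriptional repressor known from neural stem cells, and of sisRNA:4, a noncoding RNA gene. It had 651, 499.5 and 498 normalised counts in WT against 255, 195 and 164 in M1BP RNAi, without overlap. The fold changes were −1.43 ± 0.19 for asRNA:CR44275 (adjusted p = 0.00249) and −1.43 ± 0.16 for dpn (adjusted p = 0.00116), on the log2 scale. Its count was 70.2%, 69.9% and 70% of the dpn count in WT and 72.6%, 69.8% and 66.9% in M1BP RNAi. The pair thus fell together, and these counts cannot tell which strand the reads came from.

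Act87E is a muscle actin gene, and lncRNA:CR45591 (chromosome 3R, 346 bases) shares 17.3% of its bases with it on the opposite strand. The member read 539, 576 and 545 in WT and 893, 858 and 862 in M1BP RNAi (log2 fold change 0.65 ± 0.09, adjusted p = 0.00272), beside 0.62 ± 0.07 for Act87E (adjusted p = 0.0011). Similarly asRNA:CR45326 (chromosome 2R, 771 bases) rose from 505, 497 and 455 to 757, 769 and 762 (log2 fold change 0.65 ± 0.09, adjusted p = 0.00431). Alg3, a mannosyltransferase gene of N-glycan assembly with which it shares 47.3% of its bases, had 0.62 ± 0.07 (adjusted p = 0.000895). CG5504, which ends 150 bases before asRNA:CR45326 on the same strand, rose as well (0.58 ± 0.06, adjusted p = 0.000512). Whether reads from CG5504 RNA fall on the member was not tested. The ratio to the overlapping gene overlapped between genotypes for both members, at 3.21% to 3.57% in WT and 3.42% to 3.58% in M1BP RNAi for lncRNA:CR45591 and at 14.8% to 15.4% and 15.1% to 15.8% for asRNA:CR45326.

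Further calls had smaller changes. Normalised counts of asRNA:CR43481, which shares 45.4% of its bases with the small heat shock protein gene Hsp67Ba, were 10460, 10300 and 7948 in WT and 13150, 12860 and 13480 in M1BP RNAi (log2 fold change 0.46 ± 0.10, adjusted p = 0.0285), and Hsp67Ba had 0.49 ± 0.09 (adjusted p = 0.0184). Spt-I encodes a subunit of serine palmitoyltransferase, the first enzyme of sphingolipid synthesis. Along it, with 83.3% of its bases shared, asRNA:CR45142 fell from 2632, 2712 and 2437 to 2066, 2053 and 2134 (−0.32 ± 0.07, adjusted p = 0.0308), the same size of decrease as Spt-I (−0.32 ± 0.07, adjusted p = 0.0299).

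The lectin gene galectin and asRNA:CR44987 also fell together, the member from 559, 538 and 613 to 400, 397 and 425 (−0.49 ± 0.11, adjusted p = 0.0375) and galectin by −0.40 ± 0.09 (adjusted p = 0.0391). A second gene that asRNA:CR44987 overlaps, dbr, did not pass the test (−0.21 ± 0.11, adjusted p = 0.316). Lower in M1BP RNAi as well, asRNA:CR44046 had 321, 246 and 345 in WT and 138, 155 and 208 in M1BP RNAi (−0.87 ± 0.20, adjusted p = 0.046), beside −0.82 ± 0.18 for CG15528, with which it shares 35.9% of its bases (adjusted p = 0.033). Its highest M1BP RNAi library came close to its lowest WT library.

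The other called members with exon overlap changed more than their main overlapping genes. CR43361 (FBgn0263093, chromosome 4, 905179 to 907924, plus strand) is a pseudogene of which 92.5% lies under exons of unc-13, a gene needed for synaptic vesicle priming. It read 175, 92.4 and 117 in WT and 343, 368 and 217 in M1BP RNAi (log2 fold change 1.27 ± 0.27, adjusted p = 0.0333), without overlap though the libraries were widely spread. unc-13 had 14447, 12067 and 15181 in WT and 15409, 13423 and 15142 in M1BP RNAi (0.08 ± 0.09, adjusted p = 0.677). A read in the shared bases fits both genes, so these counts cannot tell whether the rise was in CR43361 RNA or in unc-13 RNA there. The member's share of the unc-13 count was 1.21%, 0.766% and 0.768% in WT and 2.23%, 2.74% and 1.43% in M1BP RNAi (exact permutation test, two-sided, p = 0.1, the smallest possible). Of the same kind but smaller, asRNA:CR44873 shares 5.04% of its bases with Ndf, a gene for a nucleosome-destabilising factor. It read 805, 814 and 812 in WT and 549, 638 and 621 in M1BP RNAi (−0.43 ± 0.09, adjusted p = 0.0364), where Ndf had −0.12 ± 0.05 (adjusted p = 0.216).

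Left out 1 library at a time, 5 of the 14 called members stayed at an adjusted p of 0.05 throughout, namely lncRNA:CR32027, CR40190, asRNA:CR44275, lncRNA:CR45591 and asRNA:CR45326. The other 9 lost the call in some fits but kept their direction. For lncRNA:CR46123 this held without any of the 6 libraries, with adjusted p from 0.057 to 0.127. lncRNA:CR44608 kept its call only without WT replicate 1, and asRNA:CR44987 and asRNA:CR44873 kept theirs only without WT replicate 2 (adjusted p up to 0.167, 0.147 and 0.115). CR43361 lost its call without WT replicate 2, WT replicate 3, M1BP RNAi replicate 1 and M1BP RNAi replicate 2 (adjusted p 0.05002 to 0.155). The same was so for lncRNA:CR30055 and asRNA:CR44046 without WT replicate 1, WT replicate 3, M1BP RNAi replicate 1 and M1BP RNAi replicate 2 (up to 0.123 and 0.176). It was so for asRNA:CR43481 and asRNA:CR45142 without WT replicate 1 and without any of the M1BP RNAi replicates (up to 0.11 and 0.145).

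How closely members followed the gene they overlap was described over all 287 members with overlap, each paired with the tested gene that shares most of its bases. Of these genes 275 were protein coding. The log2 fold changes had the same sign in 245 of 287 pairs (85.4%), with a median absolute difference of 0.034, and 238 pairs differed by 0.1 or less. Pearson's r over the pairs was 0.85, a description only, because member and gene share reads of the same libraries. The median difference was smaller where more of the member's bases overlapped. It was 0.102 in the 17 pairs with up to 10%, 0.045 in the 76 pairs with over 10% to 50%, 0.032 in the 139 with over 50% to 90% and 0.013 in the 55 with over 90%. The share of pairs with the same sign did not follow that order, at 82.4%, 84.2%, 89.2% and 78.2%, nor did Pearson's r, at 0.62, 0.92, 0.91 and 0.63. The pairs with over 90% also held the largest single difference, the 1.19 of CR43361. The level per length moved the same way, from a median member-to-gene ratio of 0.151 at up to 10% to 1.02 at over 90%. Of these genes 8 passed an adjusted p of 0.05, and the members at 7 of them passed too, the exception being asRNA:CR43889 at Mi-2.

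**Figure D4:**
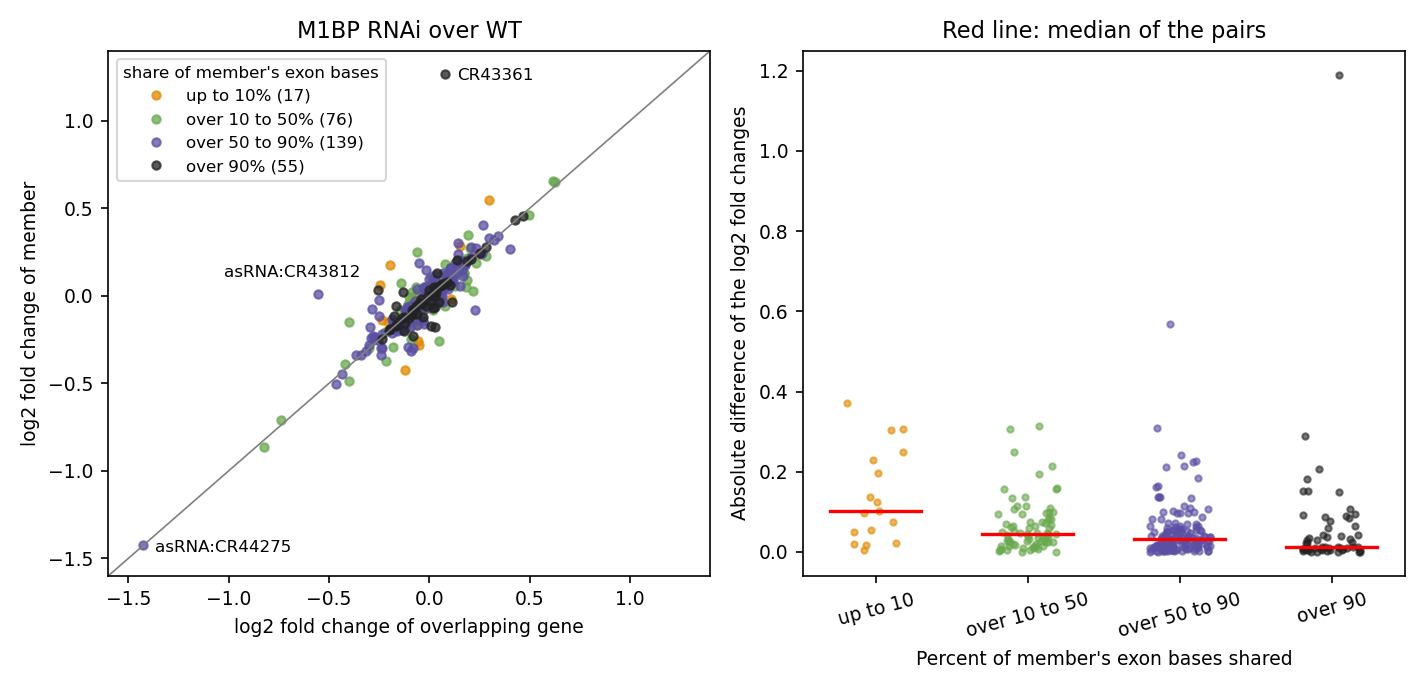
Left, the log2 fold change from WT to M1BP RNAi of each member (y axis) against that of its main overlapping gene (x axis) for 287 pairs, coloured by the share of the member's exonic bases that overlap, with the line of equal change. Right, the absolute difference of the 2 log2 fold changes by that share, with a red line at each median, which falls from 0.102 to 0.013.

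Strand could be examined where a member lies wholly inside another gene's exons. There were 23 such pairs, 17 on opposite strands and 6 on the same strand, and in all 23 the member never had more counts than the gene around it in any library. For asRNA:CR43465 and Ucp4B, a mitochondrial carrier gene, which cover the same 1167 bases on opposite strands, the counts were identical in all 6 libraries, at 558, 514, 425, 714, 600 and 505 normalised counts. A read there was thus counted for both genes whatever its strand. The count of this pair cannot tell the antisense RNA from the gene it overlaps.

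Some members nevertheless exceeded their partner. Of the 93 members with up to 50% of bases shared, 17 had a higher level per length than the main overlapping gene. The widest gap was at the pseudogene CR6900, with 149 CPM per kb against 9.83 for CG6961 on the other strand, and its log2 fold change was 0.07 (adjusted p = 0.554). At asRNA:CR43812, where 77.7% of bases are shared, the member had 74.2 CPM per kb and CG8908 2.68. The member's libraries read 1110, 1045 and 865 in WT and 969, 959 and 1118 in M1BP RNAi, with overlap. CG8908 differed by −0.56 ± 0.19 (adjusted p = 0.15) and the member by 0.01 ± 0.11, a gap of 0.57 that was second to CR43361 among all pairs. In all, 8 pairs differed by more than 0.3.

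A member can also start beside a coding gene on the other strand without sharing its exons, which can place both at a shared promoter region. Such a divergent coding gene began within 1000 bases of 53 members and was tested for 50. Member and neighbour had the same sign in 19 of these 50, with a median absolute difference of 0.218 on the log2 scale, larger than the 0.034 between members and the genes they overlap. The single divergent gene that passed an adjusted p of 0.05 was CG11889, chosen for description after its values were seen. It begins 202 bases from asRNA:CR45214 and fell from 175, 136 and 190 normalised counts in WT to 16, 7.6 and 3.1 in M1BP RNAi (log2 fold change −4.21 ± 0.45, adjusted p = 0.000805). The member stayed at 1153, 1208 and 1149 in WT and 1125, 991 and 1076 in M1BP RNAi (−0.14 ± 0.08, adjusted p = 0.368). Since asRNA:CR45214 shares 62.4% of its bases with RIOK2, a kinase gene of ribosome assembly that had −0.07 (adjusted p = 0.635), its count may hold RIOK2 reads, whose part was not tested.

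By class, 7 of 227 asRNA genes, 5 of 69 lncRNA genes and 2 of 16 pseudogenes passed an adjusted p of 0.05 (3.08%, 7.25% and 12.5%), beside 4.09% of all tested genes and 4.42% of those with 200 or more counts. The pseudogenes called were CR40190 and CR43361, in opposite directions. By chromosome, 3 of 58 members passed on 2L, 5 of 49 on 2R, 2 of 75 on 3L, 3 of 76 on 3R, 1 of 7 on 4 and 0 of 47 on X in edgeR, where 6 had an unadjusted p under 0.05 and DESeq2 called 1 (lncRNA:CR40469). These differences between classes and chromosomes were not tested. Of the members not called, asRNA:CR46029 had the largest change, from 715, 1184 and 813 to 606, 496 and 552 (−0.71 ± 0.17, adjusted p = 0.0538). It lies across Gyc89Da and Gyc89Db, neighbouring genes for guanylyl cyclase subunits, the second of which had −0.74 (adjusted p = 0.0876). The members nearest the count minimum showed little difference, with log2 fold changes of 0.29 for CR44003, 0.02 for asRNA:CR45895 and −0.0034 for lncRNA:CR45048.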

How the data were processed

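PolyA RNA was turned into libraries by a SMART-Seq v4 low-input kit and Nextera XT tagmentation, which keep no strand. The authors deposited raw counts per gene over exons in dm6, as whole numbers, of reads the file headers call unique, and their notes name bcl2fastq 2.17.1.14, Subread 2.0.3 with featureCounts, and DESeq2 1.3.0. The aligner is not given in the sources used here. Symbols came from a second deposited table, whose means, fold changes and p-values from the authors' comparison were not used.

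Members and lists were chosen with earlier results of these data known. Counts were tested with edgeR 4.0.16 (R 4.3.3), with TMM factors, filterByExpr (minimum 10 counts), genotype as the single term, the quasi-likelihood test and Benjamini-Hochberg adjustment over 10306 genes. Normalised counts are counts over effective library size times its mean. No 2 replicates agreed within counting noise (chi-square per degree of freedom 10.7 to 51.7). Overlaps came from the exons in the count table with GenomicRanges 1.54.1, and names were compared with Ensembl release 115, which gave 311 of 312 members the same span. The overlapping gene sharing most bases was taken as the main one. Named were members at either threshold up to 20, the 5 highest by count, the 3 on each side of the count minimum, the 5 highest per length outside genes, genes overlapping or next to the member past the study's threshold, and M1BP. Promoter sequences were not analysed here. Alternatives were DESeq2's size factors, no filter, DESeq2 1.42.0, a replicate block, leaving out each library, other count minimums and a minimum overlap of 10%.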

Additional observations from a re-analysis of the deposited data

How the results depend on the processing

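Low counts limit what could be seen: the 25 members with a mean under 250 counts had standard errors of 0.146 to 0.329 on the log2 scale (median 0.166). Members past the study's threshold numbered 1, against 3 without the filter on low counts, 6 by DESeq2's Wald test, 2 with a mean count minimum of 100, and 0 to 1 with 1 library left out. Members at an adjusted p of 0.05 numbered 14, against 24 by DESeq2, 7 with a minimum of 500, and 5 to 22 with 1 library left out. All 14 were among the calls of DESeq2, of DESeq2's size factors and of the fit without the filter. Over all tested genes the study's threshold gave 49 calls, against 99 without the filter, 174 by DESeq2 and 17 to 31 with 1 library left out. An adjusted p of 0.05 gave 422 over all tested genes, against 869 by DESeq2 and 177 to 764 with 1 library left out. Without exon overlap the study's threshold gave 1, against 2 without the filter, 2 by DESeq2 and 0 to 1 with 1 library left out, and an adjusted p of 0.05 gave 5, against 2 to 3 with 1 library left out. With exon overlap the study's threshold gave 0, against 1 without the filter and 4 by DESeq2, and an adjusted p of 0.05 gave 9, against 18 by DESeq2 and 3 to 19 with 1 library left out. The median log2 fold change of the members was −0.0027, against −0.0134 with a minimum of 100, 0.0122 with a minimum of 500, and −0.0134 to 0.0082 with 1 library left out. Of the uncalled members, only the highest by count, those just over the count minimum and the highest per length outside genes were followed through these fits. Those of them that changed sign when 1 library was left out ranged from −0.0034 to 0.0912 (lncRNA:CR42491), −0.0389 to 0.0509 (lncRNA:CR45184), −0.0391 to 0.0539 (asRNA:CR45895), −0.0558 to 0.0295 (lncRNA:CR45048) and −0.0734 to 0.1303 (CR40354). The cause of these shifts was not tested, beyond the fewer libraries or genes that the settings leave.

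Same-numbered libraries deviated with correlations of 0.034, −0.046 and −0.144, and not every library correlated best with its own number. With 3 libraries per genotype this cannot show whether same-numbered libraries were prepared together, and the labels do not say. With a replicate block, 0 members passed the study's threshold, of which 0 lay without exon overlap, and 11 passed an adjusted p of 0.05, all 11 among the 14. Over all 10306 tested genes, 19 and 369 passed with the block.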

Other observations

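Noncoding RNA genes outside the members were read in the same edgeR fit. Of the numbered genes with a mean under 200 counts, 454 passed the filter. At an adjusted p of 0.05, 10 of them (2.2%) were called, 5 higher and 5 lower in M1BP RNAi, beside 4.09% of all tested genes. Of the 454, 1 passed the study's threshold (0.22%, beside 0.475% of all tested genes). This was CR45458, with 262, 205 and 204 raw counts in WT against 22, 18 and 19 in M1BP RNAi (log2 fold change −3.41 ± 0.24, adjusted p = 5.04e-05), and it lies outside every other gene. Higher in M1BP RNAi were lncRNA:CR45170, within another gene's span, with 87, 86 and 62 raw counts in WT against 191, 212 and 205 in M1BP RNAi (1.46 ± 0.23, adjusted p = 0.00649), and asRNA:CR45714, with 16, 21 and 20 against 68, 93 and 104 (2.30 ± 0.34, adjusted p = 0.00491). All 3 were picked for description with their values known.

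Among 34 noncoding RNA genes with a name of their own, 12 were tested, and 1 passed an adjusted p of 0.05 (8.33%, beside 4.09% of all tested genes). This was lncRNA:dntRL, with 174, 166 and 181 raw counts in WT against 318, 254 and 275 in M1BP RNAi (log2 fold change 0.79 ± 0.15, adjusted p = 0.0203). The roX RNAs of dosage compensation did not pass the test, with log2 fold changes of 0.14 ± 0.09 for roX1 (adjusted p = 0.415) and 0.03 ± 0.10 for roX2 (adjusted p = 0.909). The heat shock RNA Hsromega read 143109, 64401 and 93202 raw counts in WT against 69083, 48557 and 65334 in M1BP RNAi (−0.61 ± 0.20, adjusted p = 0.127). The raw counts overlapped between genotypes. The normalised counts did not, with means of 95570 ± 31590 for WT against 62830 ± 9020 for M1BP RNAi (SD over 3 libraries each), with a wide spread within WT.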
